A study of Mus musculus with 4 samples.

Results

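The transcription factors p63 (gene Trp63), grainyhead-like 1, 2 and 3 (Grhl1, Grhl2, Grhl3), Ovol1, the Krüppel-like factors Klf4 and Klf5, and the AP-2 proteins Tfap2a and Tfap2c were followed in single-cell RNA-seq of the developing mouse mammary gland. These 9 genes were chosen by symbol, as factors known from epidermal development, out of 30406 genes listed at all stages. The samples were mammary tissues of wild-type female mice of the C57B6 strain (substrain N in the study's methods) at 3 embryonic days (E13.5, then E14.5, then E15.5) and at birth (postnatal day 0, P0). Each stage was 1 library, pooled from several embryos and dissected in its own session, of cells sorted as EpCAM+ or EpCAM- after removal of CD45, CD31 and Ter119 positive cells, so that stage, dissection and library cannot be told apart.

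Stratified epithelia such as the epidermis keep a basal layer that divides and sheds differentiating cells upwards, and the mammary bud forms as an ingrowth of the same surface ectoderm. p63 is a member of the p53 family that is required for stratified epithelia and their appendages, including mammary buds, and in the adult gland marks basal cells. Grainyhead-like factors bind genes of cell junctions and of the skin barrier, Ovol1 is a zinc finger repressor linked to the exit from proliferation, Klf4 is needed for the barrier, Klf5 is found in dividing epithelial cells, and AP-2 factors act in ectoderm and neural crest.

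In build GRCm38, with GENCODE M21 gene bounds, Trp63 (ENSMUSG00000022510) spans chromosome 16 from 25683763 to 25892102 on the plus strand. The grainyhead genes are apart from each other, with Grhl1 on chromosome 12 (24572283 to 24617391, plus), Grhl2 on chromosome 15 (37233036 to 37363569, plus) and Grhl3 on chromosome 4 (135541888 to 135573630, minus). Ovol1 is on chromosome 19 (5549136 to 5560646, minus). Klf4 shares chromosome 4 with Grhl3 (55527143 to 55532466, minus), and Klf5 is on chromosome 14 (99298691 to 99315036, plus). Tfap2a is on chromosome 13 (40715302 to 40738376, minus) and Tfap2c on chromosome 2 (172549593 to 172558622, plus). Gm27005 overlaps Trp63 on the same strand, so reads of Trp63 are less certain to belong to one gene. Genes on the opposite strand overlap Trp63, Grhl2, Ovol1 and Tfap2a.

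The windows from 250 bases before to 50 bases after the start are shown for Grhl3, Klf4 and Grhl1, the members for which such a window was available. The set of RefSeq (GRCm38.p6) promoter windows used here held 4 of the 9 members, and for these 3 the window covered the annotated gene start. Each is written 5′ to 3′ along its gene, with capitals at matches to the letters AACCGGTT (grainyhead), GCCNNNGGC (AP-2), CACCC (Krüppel-like) or CCGTTA (Ovo) on either strand.
Grhl3, chr4:135573583-135573882, minus strand: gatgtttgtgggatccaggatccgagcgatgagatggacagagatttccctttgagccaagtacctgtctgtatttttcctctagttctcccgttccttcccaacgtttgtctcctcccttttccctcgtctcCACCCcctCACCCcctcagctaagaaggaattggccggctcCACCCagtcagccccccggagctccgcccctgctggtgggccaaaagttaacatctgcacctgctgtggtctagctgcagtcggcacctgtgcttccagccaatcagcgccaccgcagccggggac
Klf4, chr4:55532426-55532725, minus strand: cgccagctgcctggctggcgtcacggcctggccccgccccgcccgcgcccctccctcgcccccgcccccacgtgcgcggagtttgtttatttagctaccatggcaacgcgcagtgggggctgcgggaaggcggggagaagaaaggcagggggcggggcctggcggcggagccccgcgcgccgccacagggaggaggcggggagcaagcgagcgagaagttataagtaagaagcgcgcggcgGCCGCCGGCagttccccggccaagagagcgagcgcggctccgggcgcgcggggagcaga
Grhl1, chr12:24572037-24572336, plus strand: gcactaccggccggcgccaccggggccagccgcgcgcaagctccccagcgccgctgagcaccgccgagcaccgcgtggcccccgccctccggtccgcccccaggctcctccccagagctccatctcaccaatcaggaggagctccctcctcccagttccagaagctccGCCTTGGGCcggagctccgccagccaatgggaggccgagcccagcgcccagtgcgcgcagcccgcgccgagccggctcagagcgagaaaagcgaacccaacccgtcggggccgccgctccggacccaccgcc
The Grhl3 window held 3 CACCC matches, and the windows of Klf4 and Grhl1 held 1 GCCNNNGGC match each, with no match to the other letters. Of 32817 mouse promoter windows of the same length, 57.5% held CACCC or its complement, 16.6% GCCNNNGGC, 2.75% CCGTTA and 0.146% AACCGGTT. These matches are a description of the letters in the windows and were not compared with the levels.

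Cells with at least 5000 UMIs (unique molecular identifiers, each 1 captured transcript) and at most 6% mitochondrial UMIs were kept, which left 235, 76, 816 and 503 cells in the order of the 4 stages. A cell was called epithelial or mesenchymal by the larger of its summed Epcam, Krt8, Krt18, Krt5 and Krt14 UMIs and its summed Col1a1, Col1a2 and Col3a1 UMIs. This gave 98, 45, 532 and 230 epithelial and 135, 31, 283 and 273 mesenchymal cells in the same order, with 3 ties in all. Epithelial cells with at least 5 UMIs of Krt8 and Krt18, keratins of luminal and simple epithelia, were set apart from those with fewer. The low class held 37, 22 and 86 cells at the embryonic stages but 2 cells at P0, and the high class 61, 23, 446 and 228. Median depth was 17908, 25207 and 24646.5 UMIs per cell at the embryonic stages and 9226 at P0, and no barcode was shared between libraries. All 8 mesenchyme markers were lower in epithelial cells (edgeR). The 8 mammary bud markers were Sostdc1, Pthlh, Ndnf, Tbx3, Msx1, Lmo1, Wnt10b and Cxcl14. They summed to 1851 CPM (UMIs per 1000000) in E13.5 and 1813 in E14.5 epithelial cells, against 378 and 422 in mesenchymal cells. All 8 were detected in each, and in these epithelial cells Cxcl14 gave more UMIs than any other. Of 7 tested between tissues 3 were higher in epithelial cells (Lmo1, Pthlh and Cxcl14) and 0 lower (edgeR). At P0 the luminal markers Csn3, Wfdc18, Aldh1a3, Kit, Elf5 and Prlr were all detected in the high class. Skin cells, which the study removed before it analysed mammary cells, were not removed here, so the epithelial classes are not mammary cells alone. Skin markers were present as well, and their values are given beside the comparisons within the epithelium.

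UMIs of all 9 factors were found in the epithelial cells of each library. Klf5 and Klf4 stood above 100 CPM at each stage, and the other 7 were below 40 CPM at birth, as Grhl1 at E13.5 and E14.5 and Grhl2 and Tfap2c at E15.5 already were. Levels are given as UMIs per 1000000 UMIs of the class (CPM) with exact Poisson 95% intervals, which cover counting error only. Since 3′ UMIs count molecules whatever their length, CPM were not divided by length. There was 1 library per stage, so stages were compared without a test. In bulk sums of this kind fewer expressing cells and less RNA per cell cannot be told apart, and shares of cells with a UMI are given for that reason.

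**Figure D1:**
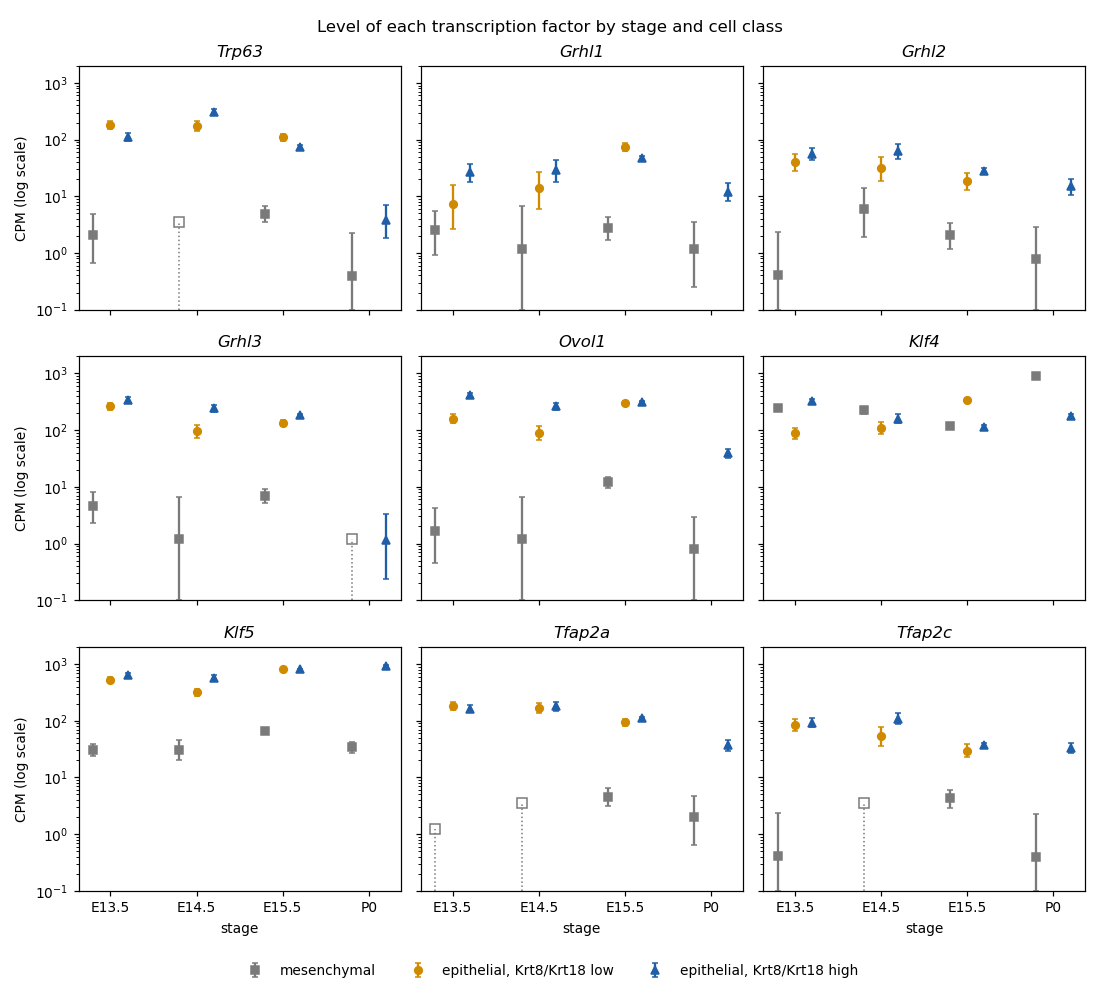
Level of each of the 9 factors in CPM (log scale) by stage, in mesenchymal cells (squares), Krt8/Krt18-low epithelial cells (circles) and Krt8/Krt18-high epithelial cells (triangles), with exact Poisson 95% intervals. Open symbols mark 0 UMIs, drawn at the level of 3 counts, and the 2 Krt8/Krt18-low cells of P0 are left out. Trp63 and Grhl3 stood at 3.86 and 1.16 CPM in the high class at P0, while Klf5 stood at 908 CPM and Klf4 was highest in P0 mesenchyme.

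In epithelial cells Trp63 stood at 139, 247 and 79.3 CPM in the 3 embryonic libraries (284, 314 and 1134 UMIs) and at 3.82 CPM in the P0 library (10 UMIs). The mesenchymal values were 2.08, 0, 4.96 and 0.399 CPM, below the epithelial value at each stage. Epithelial cells with a Trp63 UMI were 66.3%, 86.7% and 69.0% of the embryonic classes and 2.61% at P0 (exact binomial 95% interval 0.963 to 5.59), against 0.366% of P0 mesenchymal cells, with median depths of 9973 and 8743 UMIs. With 5000 UMIs drawn from each cell (thinning), these epithelial shares became 37.8%, 55.6%, 29.9% and 2.17%. The P0 share was thus the lowest at equal depth as well. In order, the E14.5 high class (306 CPM) was apart from the E13.5 and E14.5 low classes (178 and 175), which did not differ beyond counting error, and the E13.5 high and E15.5 low classes (112 and 110) did not differ from each other either. The P0 value (3.86 in the high class) did not differ beyond counting error from those of mesenchymal cells at E15.5 and E13.5. Of the 36 UMIs behind the E15.5 mesenchymal value, 30 came from 4 cells that a stricter tissue rule left out, with 0.844 CPM in the rest. Within the P0 library the ratio of epithelial to mesenchymal cells was 9.59 (1.36 to 416), from 10 and 1 UMIs.

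The P0 epithelium was mostly luminal by markers, and in the adult p63 marks basal cells. Of the 230 cells, 210 held most UMIs from the 6 luminal markers and 16 from the 5 basal markers (Acta2, Myh11, Mylk, Oxtr, Myl9), with 4 ties. These cell sets were defined after the values were seen. The 16 basal-marker cells had 1 Trp63 UMI among 176414 (5.67 CPM, 0.144 to 31.6), and the 210 luminal-marker cells had 9 (3.74 CPM, 1.71 to 7.10). Krt14, a p63 target of the basal layer, stood at 1990 and 666 CPM in these sets, and Krt5 at 215 and 3.32 CPM. Both keratins are counted in the tissue rule. The P0 library lists the same 32285 features as E13.5 and E14.5, while E15.5 lists 31053 and was made with another Cell Ranger version. The parts of cell make-up and of this processing difference in the Trp63 level at P0 against E15.5 were not tested.

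The 3 grainyhead-like genes followed different courses. Grhl3 was highest at E13.5 (311 CPM in epithelial cells, 634 UMIs), stood at 175 and 177 CPM in the next 2 libraries, and had 3 UMIs in 230 cells at P0 (1.15 CPM). Thinned to equal depth, 70.4%, 46.7% and 50.8% of embryonic epithelial cells and 0.435% of P0 epithelial cells had a Grhl3 UMI. Unthinned, 94.9% of E13.5 and 1.30% of P0 epithelial cells had a UMI. Grhl1 started low, at 18.6 and 22.0 CPM in E13.5 and E14.5 epithelium, reached 50.7 at E15.5 and was 11.9 at P0. Its highest class was the E15.5 low class (73.4 CPM), apart from the E15.5 high class (46.9). Grhl2, the form of simple and stratified epithelia alike, stood at 49.96, 47.9, 26.8 and 14.9 CPM in stage order. Its neighbouring levels were mostly within counting error, with a gap only between the E15.5 high and low classes (28.2 and 18.6 CPM). Mesenchymal levels of the 3 genes were between 0 and 7.02 CPM at all stages.

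The levels of Ovol1 over all epithelial cells were 309, 184, 317 and 39.0 CPM in stage order, and 94.4% of E15.5 epithelial cells had a UMI. At P0, 29.6% of epithelial cells had one, or 16.1% at 5000 UMIs per cell, against 0.733% of P0 mesenchymal cells. Between E13.5 and E15.5 its level went from 411 to 319 CPM in the high class and from 160 to 305 CPM in the low class. Its mesenchymal level was 11.98 CPM at E15.5 and at most 1.66 elsewhere.

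Klf5 was the single member whose highest epithelial level was at birth. It stood at 598, 456, 808 and 902 CPM in epithelial cells at the 4 stages, and 95.6% to 99.2% of the cells had a UMI. Mesenchymal levels were 30.7, 31.0, 65.0 and 33.9 CPM. The P0 high class (908 CPM) was apart from both E15.5 classes (826 and 805), which did not differ from each other. Its paralog Klf4 was found in both tissues, at 243, 226, 119 and 907 CPM in mesenchymal and 229, 137, 148 and 180 CPM in epithelial cells. P0 mesenchyme was thus the highest class for Klf4, with a UMI in 82.1% of cells, and stood apart from all others. Genes of the immediate early response, which can also rise during cell dissociation and were listed after the Klf4 values were seen, took 5899 CPM in P0 mesenchyme and 2369 in P0 epithelium over 8 of 8 genes (Fos, Fosb, Jun, Junb, Egr1, Atf3, Ier2, Zfp36). They took 3027, 5238 and 3079 CPM in embryonic mesenchyme and 2362, 3503 and 3366 in embryonic epithelium. P0 tissue was digested with the same enzymes as the embryonic tissue, but at other concentrations and with an added lysis of red blood cells. The part of these steps or of the immediate early response in the Klf4 level was not tested.

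Tfap2a and Tfap2c were both lower at E15.5 than at the earlier stages. Tfap2a was at 170, 174 and 108 CPM in embryonic epithelium and at 36.3 CPM at P0, with no UMI in 135 mesenchymal cells at E13.5, which by the floor of 3 counts allows a share of up to 2.22% of cells with a UMI (exact binomial upper limit 2.70%), nor in 31 at E14.5. Its 4 classes of E13.5 and E14.5, between 164 and 181 CPM, did not differ beyond counting error. Tfap2c was at 89.1, 84.0, 35.8 and 32.9 CPM at the 4 stages. Its last 2 values did not differ beyond counting error (ratio 0.918, 0.722 to 1.16), while Tfap2a was 2.98-fold lower at P0. The share of P0 epithelial cells with a UMI was 26.1% for Tfap2a and 27.8% for Tfap2c.

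Epithelial and mesenchymal cells were compared over the 4 libraries to ask which factors belong to the epithelium. Of the 9 members 8 were higher in epithelial cells at an adjusted p under 0.05, Klf4 being the exception, where 10.3% of 10356 genes tested were higher and 11% lower. UMIs were summed per library and class and tested with edgeR's quasi-likelihood test, with the library as a block. All 9 members passed the filter on low counts, which a gene can pass through its epithelial sums alone. Their median log2 fold was 5.19, against 0.06 over all genes tested. Trp63 was 42.1-fold higher (log2 5.39, SE 0.76, edgeR adjusted p = 0.00552), and Ovol1 had the largest fold, 63.6 (log2 5.99, SE 0.57, edgeR adjusted p = 0.00141). Klf5 had the smallest error (18.1-fold, log2 4.18, SE 0.22, edgeR adjusted p = 0.000328). The folds of the other 5 lay between 13.04 for Grhl1 and 54.4 for Tfap2a, with edgeR adjusted p from 0.000883 to 0.00861. Klf4 had a log2 fold of -0.61 (SE 0.52, edgeR adjusted p = 0.437), which was -0.03 without P0. With single libraries left out, the log2 fold of Trp63 was 4.73 without E14.5, that of Grhl2 3.59 without E13.5 and that of Grhl3 6.40 without E15.5. Tfap2a moved to 5.03 without E13.5 and 6.69 without E15.5, Ovol1 to 5.39 and 6.94, and Tfap2c to 4.55 and 7.28 in the same 2 settings. The call held in each of these. These p-values rest on the spread between 4 libraries of different stages, and a fold is the average over stages.

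**Figure D2:**
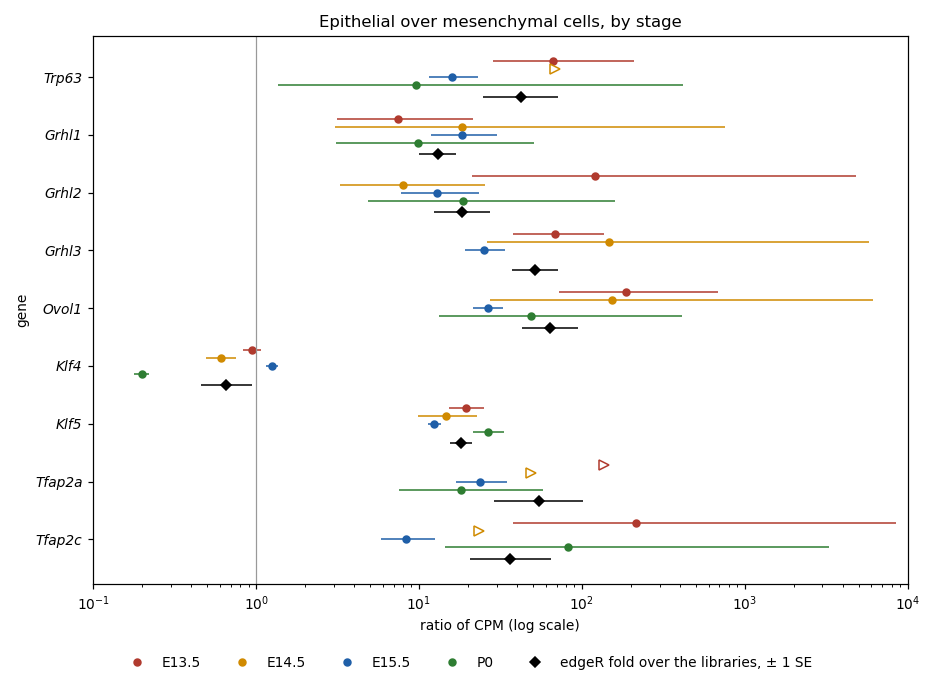
Ratio of CPM in epithelial over mesenchymal cells (log axis) for each factor at each stage, with exact 95% intervals from the counts, and the edgeR fold over the 4 libraries with 1 SE (diamonds). Open triangles are lower bounds where mesenchymal cells had 0 UMIs, intervals are cut at the right edge, and Grhl3 at P0 is left out with 3 and 0 UMIs. Of all ratios only those of Klf4 reach 1 or below.

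Stage by stage, the ratio of Trp63 was 67.0 (28.4 to 208), at least 68.9, 16.0 (11.5 to 23.0) and, from 10 and 1 UMIs at P0, 9.59 (1.36 to 416). Klf5 kept ratios of 19.5, 14.7, 12.4 and 26.6, each with a lower bound of 9.92 or more. Klf4 did not differ at E13.5 beyond counting error (ratio 0.942, 0.833 to 1.07), was lower in epithelial cells at E14.5 (0.609, 0.493 to 0.753) and P0 (0.198, 0.179 to 0.219) and higher at E15.5 (1.25, 1.15 to 1.35). The E15.5 mesenchymal UMIs of several factors came from few cells. When a call of tissue was made only where the larger sum had at least 5 UMIs and was at least 3 times the smaller, 4 of the 283 E15.5 mesenchymal cells were left out, and with them went 30 of 36 Trp63 UMIs, 36 of 51 Grhl3, 57 of 87 Ovol1 and 22 of 33 Tfap2a UMIs. Under that stricter rule Trp63 and Grhl3 no longer passed the filter on low counts and 6 of the 7 members tested were higher. Of all genes, 1040 of 10325 tested were higher there. After thinning to 5000 UMIs 6 members were tested and 5 were higher, beside 532 of all 7812 genes tested.

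Genes that these factors are known to act on were counted in the same comparison, where 10.3% of all genes tested were higher and 11% lower. The lists hold many genes typical of epithelium and were chosen with earlier results of these data known. Action of the factors on them was not tested. Of 20 listed p63 targets 19 were tested and 16 were higher in epithelial cells, none lower (median log2 fold 4.36, against 0.06 for all genes). Krt15 (log2 6.42, edgeR adjusted p = 0.00129) and Sfn (log2 6.15, edgeR adjusted p = 0.00115) had the highest ratios, and Dst (log2 1.32) and Satb1 (log2 1.29), the lowest, did not pass the test (edgeR adjusted p = 0.110 and 0.124). All 8 tested of 10 junction and barrier genes linked to grainyhead factors were higher, from Prss8 (log2 4.21), a membrane protease, and its activator St14 (log2 4.36) up to the claudins Cldn3 (log2 5.68) and Cldn4 (log2 6.02). Of 12 suprabasal genes, which mark differentiated epidermis, 4 were tested and 1 was higher, Sprr1a (log2 5.13, edgeR adjusted p = 0.000336). Among 15 paralogs of the members 9 were tested, 3 were higher and 2 lower. Tfap2b (log2 5.49) and Trp53 (log2 1.45) were the highest, and Klf2 was 18.3-fold and Tfcp2 2.43-fold lower (edgeR adjusted p = 0.00103 and 0.0270).

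Krt8/Krt18-high and low epithelial cells were compared to ask whether the factors tracked the level of these 2 keratins. The study finds Krt8 and Krt18 together with Krt5 and Trp63 in all of its E15.5 mammary clusters. The split can therefore not decide between luminal and basal lineage. None of the 9 members was called by edgeR, where 0.997% of 7624 genes were higher and 0.774% lower in the high class. At an unadjusted p under 0.05 edgeR gave 1 member, Ovol1 (1.73-fold, log2 0.79, SE 0.36, edgeR adjusted p = 0.494), and DESeq2 also called 0. The members' median log2 fold was 0.36, against 0.07 for all genes. The P0 low class in this fit was 2 cells, and without P0 again 0 members were called.

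**Figure D3:**
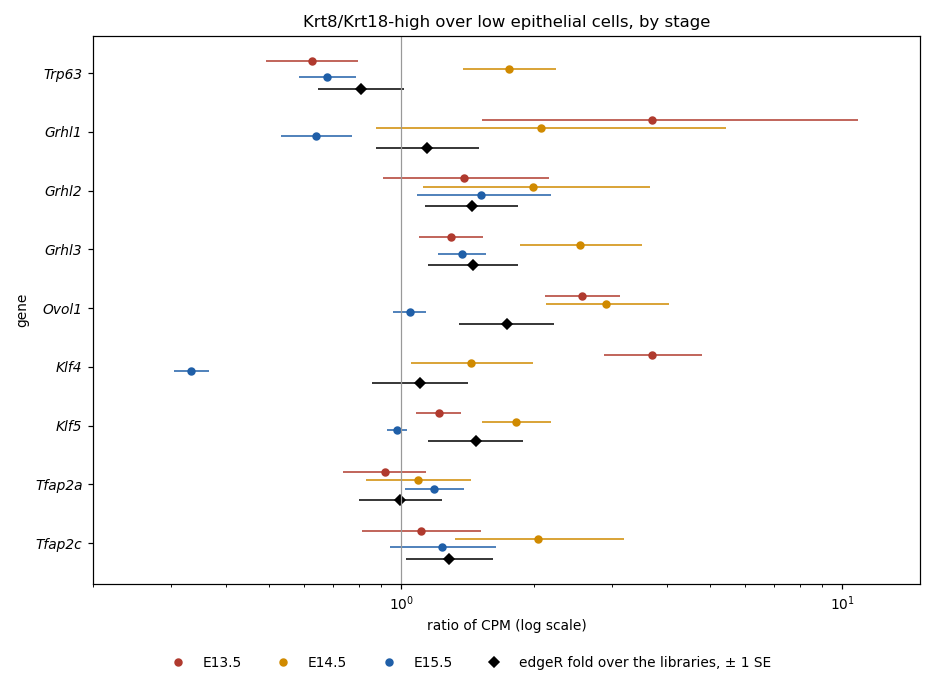
Ratio of CPM in Krt8/Krt18-high over low epithelial cells (log axis) at the 3 embryonic stages, with exact 95% intervals from the counts, and the edgeR fold over all 4 libraries with 1 SE (diamonds). Klf4 and Grhl1 lay above 1 at E13.5 and below 1 at E15.5, whereas Grhl3 lay above 1 at all 3 stages.

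Within single stages the high and low classes did differ, and not always in the same direction. Klf4 was 3.69-fold higher in the high class at E13.5 (2.87 to 4.80), 1.44-fold higher at E14.5 (1.05 to 1.99) and 3.00-fold lower at E15.5 (2.74 to 3.29). Grhl1 was 3.70-fold higher at E13.5 (1.53 to 10.8, from 32 and 6 UMIs) and 1.56-fold lower at E15.5 (1.30 to 1.87). Trp63 was 1.59-fold lower in the high class at E13.5 (1.25 to 2.02) and 1.47-fold lower at E15.5 (1.27 to 1.71), but 1.75-fold higher at E14.5 (1.38 to 2.24). Ovol1 was higher in the high class at E13.5 (2.57, 2.12 to 3.13) and E14.5 (2.91, 2.13 to 4.04) and did not differ detectably at E15.5 (1.04, 0.959 to 1.14). Grhl3 was higher at all 3 embryonic stages (1.30, 2.54 and 1.37). Tfap2a showed no ratio beyond 1.19. These intervals hold within 1 library each.

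Skin markers also differed between the high and low classes, not always in the direction of a member. At E13.5 the 5 periderm markers (Krt6a, Krt17, Gabrp, Krt4, Sprr3), of the flat outermost layer of embryonic skin, took 1333 CPM in the high class and 177 CPM in the low class, with 4 and 3 of 5 detected and Sprr3 at 0 in both. At E14.5 they took 190 and 230 CPM, and at E15.5 782 and 434 CPM, where Klf4 and Grhl1 were lower in the high class. Most of these E15.5 UMIs were of Krt17 alone. Since Krt17 also stood at 426 CPM in the luminal-marker cells of P0, the E15.5 sum is not a measure of periderm cells. At E15.5 the 7 epidermal markers (Krt1, Krt10, Krt15, Krtdap, Sbsn, Lor, Dsc1) took 1074 CPM in the high class and 4999 CPM in the low class, with 7 of 7 detected in each. At E13.5 and E14.5 they took 430 and 282 CPM in the high and 640 and 1272 CPM in the low class. The study reports Krtdap and the member Grhl3 in its E15.5 luminal-like mammary cluster. It removed contaminating skin cells before its analysis of mammary cells, and no such step was made here. Whether the epidermal sum at E15.5 comes from skin or from mammary cells was not tested. In the test over libraries the P0 low class was 2 cells, and the p-values below rest in part on these. The all-gene calls of that test, 76 higher and 59 lower, were 6 and 2 without P0 and 0 and 0 without the block. In the full fit Krt10 and Sbsn were lower in the high class (log2 -2.70 and -2.04, edgeR adjusted p = 1.08e-06 and 0.000878), as 2 of 4 suprabasal genes tested. Of 19 p63 targets tested only the basal collagen Col17a1 was called, lower in the high class (log2 -1.48, edgeR adjusted p = 0.000727), and of 7 junction genes 3 were higher, Cldn3 foremost (log2 3.26, edgeR adjusted p = 9.54e-14). None of 8 paralogs tested was called, and Klf6, Klf10 and Tfap2b had an unadjusted edgeR p of 0.0137, 0.0278 and 0.0482 (log2 0.87, 0.77 and -0.62). Of 7 bud markers tested 2 were higher in the high class, Ndnf and Pthlh (log2 1.62 and 1.42). The mesenchyme markers tested were Vim, higher in the high class (log2 1.51), and Dcn, lower (log2 -3.24). The part of skin cells in the ratios of the members was not tested.

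The epithelial cells of E13.5 could be laid out more finely by markers. Given the marker list with most UMIs, 63 of the 98 cells held mostly mammary bud markers, 31 periderm markers and 4 epidermal markers, and 4 cells each of the first 2 sets were under 2-fold from the next list. These sets were formed after the values were seen and carry no test. After removing skin cells, the study counts fewer mammary epithelial cells at E13.5 than these 63. In the 63 cells Cxcl14 stood at 1749 CPM and each other bud marker at 188 CPM or less. The 31 cells had 2288 CPM of Krt17 and 622 CPM of Gabrp, against 55.7 and 5.64 in the 63, while Krt4 stood at 21.6 and 0 CPM. Of the 31 cells, 28 were in the Krt8/Krt18-high class.

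**Figure D4:**
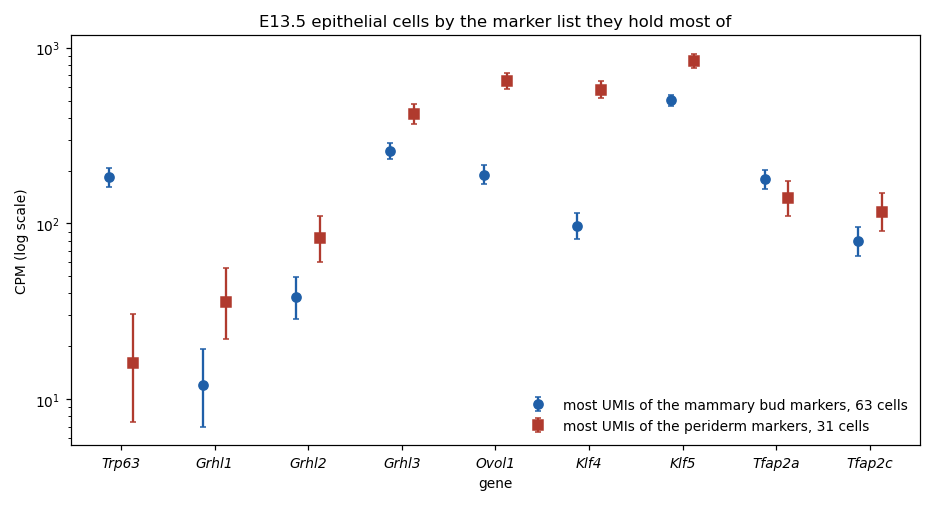
Level of each factor in CPM (log axis) in E13.5 epithelial cells with most UMIs of mammary bud markers (63 cells, circles) and of periderm markers (31 cells, squares), with exact Poisson 95% intervals. Trp63 is low in the periderm-marker cells, where Ovol1 and Klf4 are high.

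Trp63 was 11.3-fold higher (5.86 to 25.0) in the cells with bud markers, with 183 CPM there (161 to 206) and 16.2 CPM (7.40 to 30.7) in those with periderm markers, and 55 of 63 against 6 of 31 cells had a UMI at median depths of 21806 and 17908. Klf4 went the other way, with 97.3 CPM in bud-marker and 577 CPM in periderm-marker cells, a 5.93-fold difference (4.84 to 7.29). Ovol1 was 3.39-fold (2.89 to 3.99), Grhl1 3.00-fold (1.49 to 6.09) and Grhl2 2.17-fold (1.43 to 3.28) higher in the periderm-marker cells. Klf5 and Grhl3 were higher there by 1.68-fold and 1.63-fold. Tfap2a did not differ beyond counting error (ratio of bud to periderm 1.28, 0.988 to 1.67). The 4 cells with epidermal markers had 237 CPM of Trp63 from 16 UMIs. At E14.5, 43 of 45 cells held mostly bud markers. At E15.5 the same layout was less clear, since 87 of 198 bud-marker cells and 67 of 160 epidermal-marker cells were under 2-fold from the next list. The 145 cells of the periderm list had 1 UMI each of Gabrp and Krt4 and 26 of Krt6a beside 4561 of Krt17. The epidermal-marker cells held 977 UMIs of Krt4, 383 of Krt6a and 3232 of Krt17, so that set also carries periderm markers. With these limits, Trp63 lay at 86.5, 78.5 and 68.1 CPM in the 3 sets of E15.5. Grhl1 was 2.75-fold higher (2.27 to 3.35) in epidermal-marker than in bud-marker cells. Krtdap gave 10501 UMIs in the epidermal-marker cells, 118 of which were in the Krt8/Krt18-high class. The study reports Krtdap and Grhl3 in its luminal-like E15.5 mammary cluster, and Pthlh, Wnt10b, Sostdc1 and Msx1 in its basal-like cluster. Whether these sets follow skin and bud or those mammary clusters was not tested.

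Between E13.5 and E15.5, 2 members were at least 2-fold apart over all epithelial cells. Grhl1 was 2.73-fold higher (1.97 to 3.88) and Tfap2c 2.49-fold lower (2.09 to 2.95) at E15.5. Among 12059 genes with at least 20 UMIs over both groups, 14.9% were at least 2-fold higher and 14.8% at least 2-fold lower. Trp63, Grhl2 and Grhl3 were 1.75-fold, 1.86-fold and 1.75-fold lower, and the ratio of Ovol1 was 1.03 (0.944 to 1.12). Klf5 was 1.35-fold higher (1.27 to 1.43). The median log2 ratio of the members was -0.65, against -0.05 for all genes. The Krt8/Krt18 classes differed in this comparison. In the high class Klf4 was 2.84-fold (2.53 to 3.17), Tfap2c 2.52-fold and Grhl2 2.00-fold lower at E15.5, Grhl1 1.77-fold higher (1.24 to 2.61) and Ovol1 1.29-fold lower (1.17 to 1.42). In the low class Klf4 was 3.91-fold (3.07 to 5.03), Grhl1 10.2-fold (4.59 to 28.3) and Ovol1 1.90-fold higher (1.58 to 2.31), and Tfap2c was 2.81-fold and Grhl2 2.19-fold lower. Over all epithelial cells the epidermal markers stood at 516 CPM at E13.5 and 1635 CPM at E15.5, the periderm markers at 860 and 732 CPM and the bud markers at 1851 and 573 CPM, and their part in these ratios was not tested.

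Between E15.5 and P0 no member was at least 2-fold higher and 5 were at least 2-fold lower, Trp63, Grhl1, Grhl3, Ovol1 and Tfap2a. In the same comparison 15% of 12247 genes were at least 2-fold higher and 18.5% lower, and the median log2 ratio was -1.58 for the members and -0.11 for all genes. Grhl3 was 154-fold lower, from 3 UMIs at P0 (52.7 to 749). Trp63 was 20.7-fold (11.2 to 43.4), Ovol1 8.12-fold (6.67 to 9.98), Grhl1 4.28-fold (2.99 to 6.34) and Tfap2a 2.98-fold (2.42 to 3.71) lower. Grhl2 was 1.80-fold lower (1.29 to 2.57), and Klf5 and Klf4 were 1.12-fold and 1.21-fold higher. Within the Krt8/Krt18-high class alone the same 5 genes were at least 2-fold lower, with Trp63 down 19.2-fold and Grhl3 159-fold. The share of all genes was not computed within that class. In mesenchymal cells Klf4 was 7.65-fold higher (7.07 to 8.28) at P0 than at E15.5. The sums of skin and bud markers were lower at P0 too, though not each marker was. In the periderm list, Krt6a and Gabrp stood at 145 and 5.82 CPM in the luminal-marker cells of P0. In the marker sets of E15.5 they reached at most 84.7 and 1.33 CPM. From E15.5 to P0 the epidermal markers went from 1635 to 97.2 CPM in epithelial cells (7 and 6 of 7 detected), the bud markers from 573 to 89.1 CPM (8 and 7 of 8) and the periderm markers from 732 to 583 CPM (5 and 4 of 5). The part of these marker changes in the ratios of the members was not tested.

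Seen per cell, embryonic epithelial cells combined several factors. With each cell thinned to 5000 UMIs, the median epithelial cell had UMIs of 4 of the 9 factors at each embryonic stage and of 2 at P0. Cells with 5 or more made up 41.8% (31.9 to 52.2), 35.6% (21.9 to 51.2) and 25% (21.4 to 28.9) of the embryonic classes and 0 of 230 at P0, which by the floor of 3 counts allows a share of up to 1.30% (exact binomial upper limit 1.59%). Mesenchymal cells had a median of 1, 1, 0 and 1 factors. Without thinning the epithelial medians were 7, 7, 7 and 3.

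**Figure D5:**
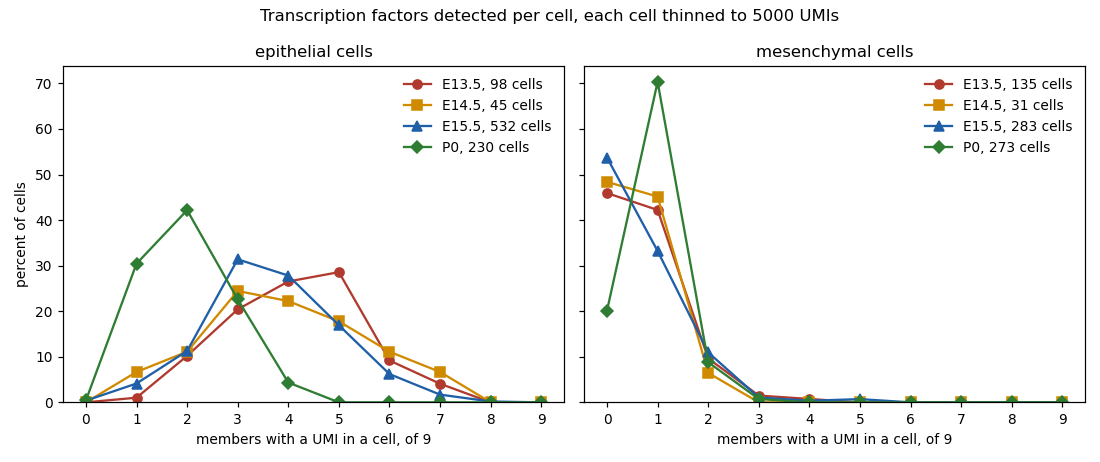
Percent of epithelial (left) and mesenchymal (right) cells by the number of the 9 factors with at least 1 UMI, each cell thinned to 5000 UMIs, with a line per stage. The embryonic epithelial curves peak at 3 to 5 factors and the P0 curve at 2, while mesenchymal cells mostly had 0 or 1.

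The genes most like each member were sought by Pearson correlation of log2(CPM + 10) over 11 groups of stage and class, among 5509 genes at 50 CPM or more in at least 1 group. The groups share libraries, and epithelium against mesenchyme alone gives a high correlation, so these are descriptions. Trp63 was closest to Wnt3, a Wnt ligand (r = 0.984), and Kcnh7, and Ovol1 to the receptor Notch1 (r = 0.978) and the desmosomal cadherin Dsg3. Grhl2 and Tfap2c were closest to each other (r = 0.973). Klf5 was closest to the receptor Erbb3 and to plakophilin Pkp3, and Grhl3 to Tfb2m and Limk2. The collagen receptor Ddr1 was among the 2 genes most like Tfap2a (r = 0.986), and Pon2 among the 2 most like Grhl1 (r = 0.951). Klf4 had the weakest partners, Pgm1 and Creg1 (r = 0.883 and 0.866).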

How the data were processed

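Libraries were made with the 10x Chromium 3′ v3.1 kit. The authors deposited for each stage a matrix of counts (UMIs per gene and barcode, not normalized), made with Cell Ranger on the mm10 pre-built reference. Per the file headers the version was 3.1.0 for E15.5, whose table lists 31053 features, and 6.0.0 for the other stages, with 32285. Genes were matched by Ensembl identifier. Features and barcodes were used as deposited, and no column lacked a sample. Doublets were excluded at sorting per the labels and not called again. The kept cells, from 2111282 UMIs in all at E14.5 to 21559040 at E15.5, are more numerous at each stage than the cell numbers the study gives after its stated filters. All intervals are exact and cover counting error only.

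Class sums per library were tested with edgeR 4.0.16 in R 4.3.3 (filterByExpr, TMM, quasi-likelihood, Benjamini-Hochberg over all genes, threshold 0.05), with the library as a block, checked on simulated data. SE was taken from the F statistic. Numbers of replicates are not given in the labels, and the block is the library both classes come from. Levels, ratios, likeness and thinning used Python 3.11.15, numpy 2.4.6 and scipy 1.17.1. A fold against 0 UMIs was set against 3 counts in the class. Alternatives were another UMI minimum (3000) and mitochondrial maximum (10%), thinning, a stricter tissue rule, RLE factors, no filter, DESeq2 1.42.0, no block, other Krt8/Krt18 limits, a 1.5-fold limit and leaving out each library. The members and gene lists were chosen with earlier results of these data known. All members are named, and of each list at most 4 genes, the 2 highest and 2 lowest by log2 fold. Other lists had few tested genes in the tissue comparison: 3 of 7 mammary bud, 0 of 2 luminal, 0 of 3 basal and 1 of 4 epidermal markers were higher, the 1 periderm marker (Krt17) was higher, 1 muscle marker (Des) lower, and 1 endothelial and 1 immune marker were not called, with no Schwann or melanocyte marker tested. In the Krt8/Krt18 comparison no luminal (1 tested), basal (2) or periderm (2) marker was called. One of the 2 most alike genes of Tfap2a and of Grhl1 is not reported here.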

Additional observations from a re-analysis of the deposited data

Results flagged for a closer look

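The epithelial over mesenchymal ratio of Klf4 lay above 1 at E15.5 (1.25) and below 1 at E14.5 (0.609) and P0 (0.198), with intervals on opposite sides of 1. In the comparison of Krt8/Krt18-high with low epithelial cells, Trp63 lay above 1 at E14.5 (1.75) and below 1 at E13.5 (0.628) and E15.5 (0.678), Grhl1 above 1 at E13.5 (3.70) and below 1 at E15.5 (0.640), and Klf4 above 1 at E13.5 (3.69) and E14.5 (1.44) and below 1 at E15.5 (0.333). These differences between stages were not tested, since each stage is 1 library.

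Barcodes that the filters on depth and mitochondrial share left out also held UMIs of the 9 factors, which together made 1058, 1248, 1436 and 919 CPM in stage order. In the cells kept the same sums were 1021, 1026, 1236 and 1087 CPM.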

How the results depend on the processing

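The call of 8 members as higher in epithelial cells became 5 after thinning to 5000 UMIs, where fewer genes pass the filter (6 members tested), and was 6 of 7 tested under the stricter tissue rule, and 7 to 8 when a library was left out (7 of 8 tested without E15.5). It stayed at 8 with RLE factors, DESeq2, no filter, a UMI minimum of 3000, a mitochondrial maximum of 10% and without the replicate block. The number of all genes called higher in epithelial cells, 1062 of 10356 tested, was 616 without the replicate block and 555, 397 and 330 without E13.5, E14.5 and E15.5. Without P0 it was 1422. It was 532 of 7812 after thinning, 1040 of 10325 under the stricter tissue rule and 973 with RLE factors. With DESeq2 it was 1438 of 13843 and with no filter 1354 of 21268. At a UMI minimum of 3000 and a mitochondrial maximum of 10% it was 1082 and 1093. In the Krt8/Krt18 comparison 0 members were called by edgeR or DESeq2 in any setting, including each library left out, and at an unadjusted p under 0.05 there were 4 without E15.5 and at most 1 otherwise. The all-gene calls there, 76 higher and 59 lower, fell to 6 and 2 without P0, whose low class is 2 cells, and to 0 and 0 without the replicate block. They were 11 and 9 with at least 10 UMIs of Krt8 and Krt18, 4 and 8 with classes set after thinning, 104 and 117 without a filter, and 31 and 18 with DESeq2.

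In that comparison log2 folds near 0 changed sign. Grhl1 (0.19) was -0.34 without the replicate block and -0.36 to 1.40 with a library left out. Klf4 (0.14) was -0.16 after thinning, -0.22 with classes set after thinning, -0.0071 without the block and -0.63 to 0.96 with a library left out. Tfap2a (-0.0086) was 0.0034 at a mitochondrial maximum of 10%, 0.0085 at a UMI minimum of 3000, 0.11 with classes set after thinning, 0.024 without a filter and -0.073 to 0.067 with a library left out. Tfap2c (0.36) was -0.032 with classes set after thinning. The cause was not tested. The 2 members at least 2-fold apart between E13.5 and E15.5 became 7 at a limit of 1.5-fold, 4 in the low class alone and 3 in the high class alone, where Grhl1 was no longer one of them. The 5 lower at P0 numbered 5 to 6 in all settings run, and the low class could not be used there. Shares over all genes were computed only at 2-fold over all epithelial cells in the main setting. The other counts of members 2-fold or 1.5-fold apart between stages have no such share and cannot be read as a result about the members. For some cells few UMIs decide between the Krt8/Krt18-high and low class: 15, 11 and 38 embryonic epithelial cells had 3 to 7 UMIs of the 2 keratins. The levels of Trp63 and Grhl3 at P0 are imprecise, since they rest on 10 and 3 UMIs.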

Other observations

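Epithelial cells with and without a Trp63 UMI were compared for the other factors after thinning to 5000 UMIs. At E13.5, Grhl3 was found in 56.8% of 37 cells with Trp63 and 78.7% of 61 cells without, and Klf4 in 35.1% and 55.7%. Ovol1 was in 48.6% and 67.2% of them, while Tfap2c went the other way with 40.5% and 23.0%. Among the 98 epithelial cells of E13.5, 31 held mostly periderm markers, and their part in these shares was not tested. At E14.5 the order for Grhl3 was the opposite, 64% of 25 cells and 25% of 20 cells, while Klf4 was again lower with Trp63 (32% and 50%). At E15.5 Grhl3 was in 45.3% of 159 and 53.1% of 373 cells, Klf4 in 41.5% and 42.6%, and Klf5 in 92.5% and 94.9%. Grhl2 was in 15.1% and 10.7%. Grhl1 was in 12.6% and 21.7% of these E15.5 cells. Its shares were 2.70% and 6.56% at E13.5 and 8% and 20% at E14.5, each from few cells. Cells are not replicates, and no test was made.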
